A study of Mus musculus with 36 samples.

Results

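The comparison covers the kidney medulla of Balb/c mice 24 h after 14 MBq of 177Lu-octreotate, set against the medulla of mice given 0 MBq. The arrays were chosen by their labels alone: 3 arrays at 14 MBq and 3 at 0 MBq, which is 6 of the 36 arrays of the series, and all 10869 genes detected on 3 or more of the 18 medulla arrays. The series measured messenger RNA in fresh-frozen cortex and medulla of Balb/c mice at 0, 1.3, 3.6, 14, 45 and 140 MBq, with 3 Illumina bead arrays for each of the 12 groups. Every treated group carried the nuclide 177Lu, and the sources used here do not give what the animals at 0 MBq were injected with. The labels do not tell whether the replicates are different animals. P-values here reflect the spread among the arrays, part of which may be technical.

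177Lu-octreotate is a somatostatin analogue that carries a beta-emitting lutetium isotope and is used against neuroendocrine tumours. Such peptides are filtered in the glomerulus and taken back up by the proximal tubule, through the endocytic receptor megalin, the product of Lrp2, so the kidney receives part of the radiation. The medulla lies below the cortex and is built mainly of loops of Henle, collecting ducts and vasa recta. Ionising radiation stabilises p53, a transcription factor that switches on genes for cell cycle arrest, repair and cell death. Kidney cells also run a circadian clock, in which the proteins BMAL1 (from Arntl) and CLOCK activate the Per and Cry genes, whose products in turn repress them.

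Values are log2 signals after background correction and quantile normalisation, differences are log2 differences of 14 MBq minus 0 MBq ± limma's standard error, and the number of arrays limits their precision. A gene was called at a limma p under 0.05 after Benjamini-Hochberg adjustment over all 10869 genes. The gene lists used below were chosen with earlier results of these data known, so their counts describe and do not test. The median raw signal was between 123 and 186 on the control arrays and between 187 and 225 at 14 MBq, and between 12889 and 13293 probes were detected on each of the 6. At 0 MBq Slc14a2, a urea transporter of the inner medulla, was 5.46 ± 0.96 above cortex (limma, adjusted p = 0.00467). Aqp2, the water channel of collecting duct, was 1.02 ± 0.31 above cortex (adjusted p = 0.181). The proximal tubule phosphate transporter Slc34a1 had a mean of 14.63 in medulla and 14.80 in cortex, a difference of -0.17 ± 0.14 (adjusted p = 0.785). Over whole lists at 0 MBq the median difference of medulla from cortex was -0.28 for 31 proximal tubule, -0.05 for 16 principal cell and 0.27 for 12 thin limb markers, and -0.03 for all genes. The pieces labelled medulla thus carried Slc14a2 well above cortex, while the list of principal cell markers lay near the median of all genes. Lrp2 itself was at 5.69, 6.20 and 6.90 in the controls and 6.03, 6.24 and 5.85 at 14 MBq, with a difference of -0.22 ± 0.29 (adjusted p = 0.702), and Sstr2, a receptor for octreotate, did not pass the detection filter.

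Some arrays stood apart. On the second principal component of the medulla arrays, which held 16.9% of the variance, control replicates 1 and 2 lay at 46.2 and 29.7 and control replicate 3 at 2.66. Both of those controls carried the highest summed signals of myeloid markers, 56914 and 33353 against 19324 on control replicate 3. The 3 arrays at 14 MBq lay between 26.3 and 32.7 on the first component (22.5% of the variance), which reached 11.95 at most on the other medulla arrays. On replicate 3 at 14 MBq the summed signal of the 4 measured adrenal markers was 8760, against 169 to 207 on the other 5 arrays. In bulk tissue, fewer cells of a type and less RNA per cell cannot be told apart.

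Of the 10869 genes, 474 (4.36%) were called, 263 higher (2.42%) and 211 lower (1.94%) at 14 MBq, and 2483 had an unadjusted p under 0.05. The median difference over all genes was -0.02. Among the called genes the median was 1.01 for those higher and -0.91 for those lower, and 136 rose and 95 fell at least 2-fold by the fitted difference. Of the called genes 25 that rose were not detected on any control, and 24 that fell were not detected on any array at 14 MBq. In 6 called genes the arrays of the groups overlapped. The 3 arrays at 14 MBq all lay above the 3 controls in 1436 genes (13.2%) and below them in 1448 (13.3%). The count depended on single arrays: it was 869 without control replicate 3, 92 without control replicate 1, 247 without control replicate 2, and 109, 132 and 59 without replicates 1, 2 and 3 at 14 MBq. With control replicates 1 and 2 left out together it was 7, of which 4 were higher (Ciart, Per1, Per2 and Msra) and 3 lower (Arntl, Rgs9 and Il20ra). Of the 474 genes, 35 rises and 12 falls kept their call in each of the 6 leave-one-out fits.

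**Figure D1:**
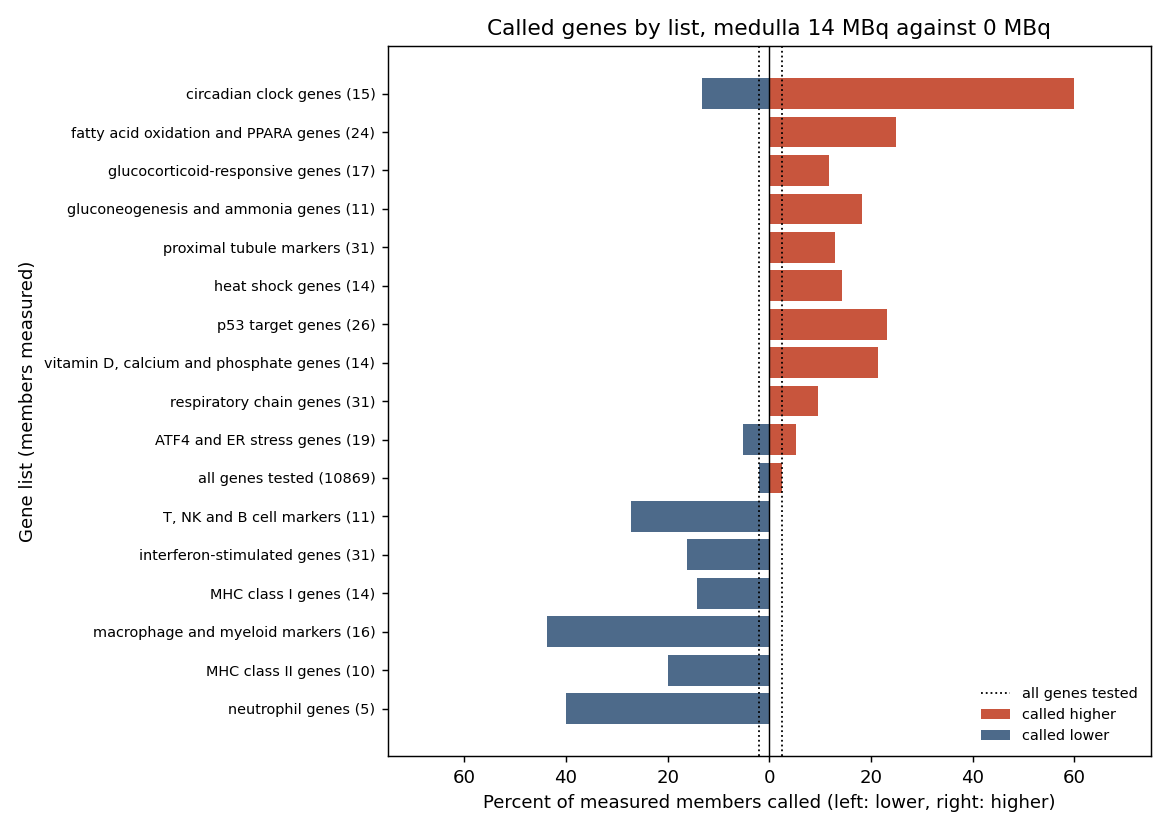
Percent of the measured members of each gene list called higher (right) or lower (left) at 14 MBq, for lists with 2 or more calls, with the number of measured members in brackets. Dotted lines give the percent of all 10869 genes called in each direction (2.42% and 1.94%). The lists were chosen with earlier results of these data known, so the shares are a description and no test. Clock genes reach furthest to the right, with 9 of 15 called higher, and myeloid markers furthest to the left, with 7 of 16 called lower.

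The called circadian clock genes differed in direction by role. Of 15 measured members 9 rose and 2 fell, against 2.42% and 1.94% of all genes, and the list's median was 0.91 against -0.02 for all genes. The members that rose were repressors and output genes of the clock (Ciart, Per1, Per2, Cry2, Per3, Tef, Dbp, Usp2 and Noct), and the pair that fell were its activators, Arntl and Clock. Ciart, a repressor of the BMAL1 and CLOCK complex, was at 6.02, 6.46 and 5.63 in the controls and 8.66, 8.55 and 8.25 at 14 MBq. All 3 treated arrays lay well above all controls, and the rise of 2.45 ± 0.21 (5.47-fold, limma, adjusted p = 3.15e-05) had the smallest p of all genes tested. Ciart was detected on no more than 2 of the 3 controls, so the size of its rise rests partly on signals near background.

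Per1, a repressor that also answers to glucocorticoids, was at 9.28, 9.57 and 8.51 in the controls and at 10.92, 11.15 and 10.82 at 14 MBq. The groups did not overlap, and the difference was 1.84 ± 0.21 (3.59-fold, adjusted p = 0.00106), with a second Per1 probe at 1.76. Per2 rose by 1.34 ± 0.19 (adjusted p = 0.00262). The PAR-domain transcription factor genes Tef and Dbp, which carry the rhythm to output genes, rose by 0.99 ± 0.15 (adjusted p = 0.00552) and 1.44 ± 0.29 (adjusted p = 0.0169). The deubiquitinating enzyme gene Usp2 rose by 0.91 ± 0.14 (adjusted p = 0.00551) and the repressor Cry2 by 1.06 ± 0.20 (adjusted p = 0.0111). Arntl was at 8.26, 6.88 and 7.19 in the controls and at 6.06, 5.61 and 5.68 at 14 MBq. Its groups were apart, and it fell by 1.66 on the log2 scale (SE 0.26, adjusted p = 0.00552), while Clock fell by 0.65 (SE 0.15, adjusted p = 0.0239). Arntl was detected on 2 of the 3 arrays at 14 MBq, so the size of its fall also rests partly on signals near background. The other 4 members, all repressors, did not pass the test. Nr1d1, which encodes the Arntl repressor REV-ERB alpha, was at -0.65 ± 0.22 (adjusted p = 0.102), Nfil3 at -0.74, Bhlhe40 at -0.23 and Nr1d2 at 0.62, so 3 of them lay on the side of the activators.

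Of the 11 clock calls 6 held in every leave-one-out fit: Arntl, Per1, Per2, Tef, Ciart and Usp2. Without replicate 3 at 14 MBq 5 were lost, without control replicate 1 it was 4, and without control replicates 1 and 2 together 3 rises and 1 fall were still called. The sources used here do not give the hour at which the tissue was taken, and its part in these differences was not tested.

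The E-box, bound by BMAL1 and CLOCK, was searched for as CACGTG, which reads the same on both strands, in the 250 bases before each start in a RefSeq promoter table (GRCm38.p6). It stood in 6.02% of the 32851 promoters of that table. Among the 8 rising clock genes with a promoter there, Ciart, Per1 and Tef held it, and neither of the 2 that fell did. A gene was counted if any of its listed starts held the motif, whereas the percentages count every start. Per1 held it at 1 of 2 starts and Tef at 2 of 2. Of the 3 listed members that were not called 0 held it. A second motif, the ROR element, was searched for as TAGGTCA on both strands and stood in 2.23% of promoters. It was in 0 of the 8 rising and 0 of the 2 falling genes, and in 1 of the 3 not called, Nfil3. Arntl and Usp2 also kept their call in every leave-one-out fit, and their promoters had no E-box match. The promoters of Ciart, Per1 and Tef are shown because they held the E-box, with each copy in capitals. They lie at chr3:95882229-95882478 (minus strand), chr11:69098699-69098948 (plus strand) and chr15:81802423-81802672 (plus strand).
Ciart: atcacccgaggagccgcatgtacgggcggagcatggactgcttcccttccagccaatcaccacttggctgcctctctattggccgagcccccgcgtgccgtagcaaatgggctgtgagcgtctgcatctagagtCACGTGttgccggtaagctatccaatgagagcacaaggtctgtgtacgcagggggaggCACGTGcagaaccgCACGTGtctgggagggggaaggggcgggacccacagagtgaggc
Per1: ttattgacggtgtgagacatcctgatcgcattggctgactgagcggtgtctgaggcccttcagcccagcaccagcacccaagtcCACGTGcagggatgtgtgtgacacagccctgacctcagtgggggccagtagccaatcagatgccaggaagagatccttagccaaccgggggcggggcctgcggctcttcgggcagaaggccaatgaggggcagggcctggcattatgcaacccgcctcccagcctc
Tef: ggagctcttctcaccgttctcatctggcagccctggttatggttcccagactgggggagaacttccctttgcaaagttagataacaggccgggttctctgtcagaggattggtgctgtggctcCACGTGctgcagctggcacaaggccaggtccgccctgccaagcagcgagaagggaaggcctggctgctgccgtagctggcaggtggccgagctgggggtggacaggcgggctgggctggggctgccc
Ciart, with the rise of 2.45, carried 3 copies, and Per1 and Tef carried 1 each. A match is a description of the letters and not a binding site, and no match says only that these letters are not in the window.

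**Figure D2:**
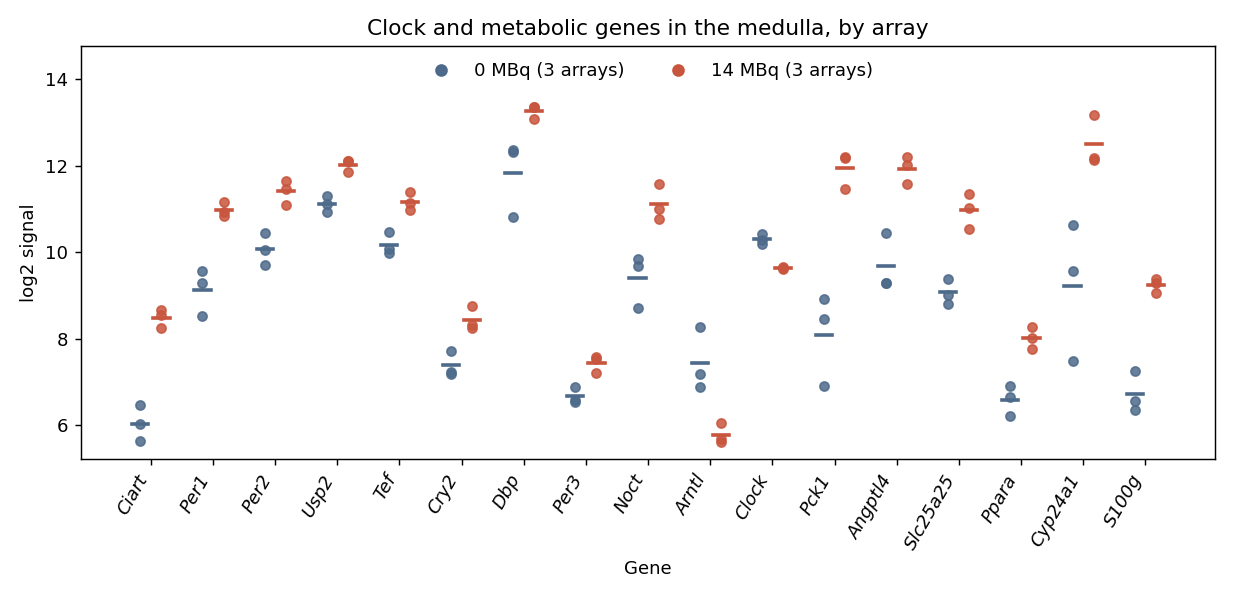
Log2 signal of clock genes (Ciart to Clock) and of metabolic and calcium genes (Pck1 to S100g) on each medulla array at 0 MBq and 14 MBq, with points for arrays and bars for the mean of 3. In every gene shown the points of one activity lie wholly above those of the other, and only Arntl and Clock are lower at 14 MBq.

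Several targets of p53 rose at 14 MBq. Of 26 measured members 6 rose (Phlda3, Ephx1, Ccng1, Zmat3, Cdkn1a and Mgmt) and 0 fell, against 2.42% of all genes, and the list's median was 0.30. Phlda3, which encodes an inhibitor of Akt signalling, was at 6.95, 6.91 and 7.30 in the controls and at 9.21, 9.60 and 9.31 at 14 MBq. Its rise of 2.32 ± 0.31 (4.98-fold, limma, adjusted p = 0.00218) was among the 12 largest, and a second probe gave 2.16. Ephx1, the microsomal epoxide hydrolase gene, was at 10.47, 9.96 and 10.24 in the controls and 11.56, 11.48 and 11.22 at 14 MBq. The groups were apart, with a rise of 1.20 ± 0.16 (2.29-fold, adjusted p = 0.00254). Ccng1, the gene of cyclin G1, rose by 1.20 ± 0.20 (adjusted p = 0.00692) and Zmat3, which encodes an RNA-binding zinc finger protein, by 1.01 ± 0.19 (adjusted p = 0.0119).

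Cdkn1a, the gene of the p21 inhibitor of cyclin-dependent kinases, was at 8.68, 9.06 and 7.67 in the controls and at 10.34, 9.75 and 9.62 at 14 MBq. The groups did not overlap, but the control arrays were spread over more than 1 log2 unit, and the rise was 1.43 ± 0.33 (2.70-fold, adjusted p = 0.0254). Its call was lost without control replicate 1 (adjusted p = 0.0638) and without each array at 14 MBq (adjusted p 0.0626 to 0.0969). Mgmt, a DNA repair methyltransferase gene detected on 1 of 3 controls, rose by 0.89 ± 0.23 (adjusted p = 0.0387). The p53 antagonist Mdm2 did not pass, at 0.45 ± 0.13 (adjusted p = 0.0586). Of the 6 calls those of Phlda3, Ephx1 and Ccng1 held in every leave-one-out fit. Mgmt was kept in the p53 list, and none of the 16 measured members of a separate DNA repair list was called (median 0.01). Of 16 proliferation genes 1 was called, the spindle gene Nusap1, which fell by 1.21 (SE 0.25, limma, adjusted p = 0.0186). Both counts stand against 2.42% of all genes called higher and 1.94% called lower.

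Genes of fatty acid oxidation and of the lipid sensor PPARA formed a further group. Of 24 measured members 6 rose and 0 fell, against 2.42% and 1.94% of all genes, and the median was 0.86. Like the others, the list was chosen with earlier results of these data known. In the list 23 members were above 0, as were 5112 of the 10869 genes. The members that rose were carriers, regulators and lipase inhibitors, and no enzyme of the oxidation steps was among them. Angptl4, which encodes a secreted inhibitor of lipoprotein lipase, was at 9.28, 9.30 and 10.44 in the controls and at 12.20, 11.58 and 12.005 at 14 MBq. The groups were separate, and the rise was 2.26 ± 0.38 (4.78-fold, limma, adjusted p = 0.00778). Slc25a25, a mitochondrial ATP-Mg and phosphate carrier gene, rose by 1.90 ± 0.34 (adjusted p = 0.00966) and Ppara itself by 1.43 ± 0.25 (adjusted p = 0.00819). The carnitine carrier gene Slc25a20, the coenzyme A carrier gene Slc25a42 and the lipase inhibitor gene G0s2 rose by 1.28 ± 0.25, 1.24 ± 0.22 and 1.37 ± 0.37 (adjusted p = 0.0146, 0.0102 and 0.0473). The calls of Ppara, Angptl4 and Slc25a25 held in every leave-one-out fit. Without control replicates 1 and 2 together the list's median was 0.23.

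The largest rise in the medulla was that of Pck1, the gene of the gluconeogenic enzyme phosphoenolpyruvate carboxykinase. It was at 6.90, 8.91 and 8.46 in the controls and at 12.17, 11.46 and 12.19 at 14 MBq, a rise of 3.85 ± 0.69 (14.4-fold, adjusted p = 0.00966). The treated arrays were close together and the controls were spread over about 2.01 log2 units (6.90 to 8.91), and the call was lost without replicate 3 at 14 MBq (adjusted p = 0.0503). Of 11 gluconeogenesis and ammonia genes 2 rose and 0 fell, against 2.42% and 1.94% of all genes. The 2 that rose were Pck1 and the glucose-6-phosphate carrier gene Slc37a4 (1.23 ± 0.28, limma, adjusted p = 0.0266). Glul, which encodes glutamine synthetase, was at 7.12, 7.41 and 7.76 in the controls and 9.59, 9.64 and 10.27 at 14 MBq. It rose by 2.41 ± 0.47 (5.30-fold, adjusted p = 0.0155), with no overlap, and the call was lost without control replicate 1 (adjusted p = 0.0632) and without replicate 3 at 14 MBq (adjusted p = 0.0707). Acsm2, an acyl-coenzyme A synthetase gene of proximal tubule, rose by 2.28 ± 0.45 (adjusted p = 0.0153). Of the 6 leave-one-out fits 4 lost the call of Slc37a4 and 3 that of Acsm2.

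Of 14 vitamin D, calcium and phosphate genes 3 rose and 0 fell, against 2.42% and 1.94% of all genes, with a median of 0.19. Cyp24a1, which encodes the enzyme that inactivates vitamin D, was at 7.48, 10.64 and 9.57 in the controls and 13.17, 12.18 and 12.12 at 14 MBq. The control arrays spread widely below the treated ones, and the rise was 3.26 ± 0.67 (9.60-fold, limma, adjusted p = 0.0178). S100g, the gene of the calcium-binding protein calbindin-D9k, was at 6.36, 6.55 and 7.25 in the controls and 9.05, 9.30 and 9.38 at 14 MBq, with no overlap. It rose by 2.52 ± 0.55 (5.74-fold, adjusted p = 0.0215), and the vitamin D receptor gene Vdr rose by 1.13 ± 0.24 (adjusted p = 0.0196). Each of these 3 calls was lost without control replicate 1 and without replicates 1 and 3 at 14 MBq, with adjusted p between 0.0556 and 0.0841. Of the 6 leave-one-out fits 5 lost the call of S100g, 4 that of Vdr and 3 that of Cyp24a1.

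Markers of proximal tubule and of fat cells moved beside these metabolic genes. Of 31 proximal tubule markers 4 rose (Pck1, Acsm2, Slc22a6 and Hnf4a), against 2.42% of all genes, and the median was 0.46. Each of these 4 calls was lost without replicate 3 at 14 MBq. Their mean deviation from the medulla average ran from -0.93 to 0.04 on the controls and from 0.06 to 0.30 at 14 MBq. Of 11 measured adipocyte markers 1 was called, Pck1, and the median was 2.30. The adipocyte markers' mean deviation was -1.69 to -0.49 on the controls and 0.82 to 1.04 at 14 MBq, and their summed signal was 26852 to 34250 and 31258 to 40166. Adipoq, the adiponectin gene, was at 9.86, 5.16 and 8.68 in the controls and at 10.21, 10.14 and 10.26 at 14 MBq (2.30 ± 1.22, adjusted p = 0.276). Ucp1, the uncoupling protein gene of brown fat, was not detected on any control and was detected on all 3 arrays at 14 MBq. By the group means it was at least 6.05-fold higher, but it was not called (limma, adjusted p = 0.0685). Over the other planned settings, the leave-one-out fits included, its difference ran from 1.52 to 3.70. Fabp4 and Retn, which also mark fat cells, were not detected on any of the 6 arrays. The part of these cells in the metabolic rises was not tested.

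Among the 12 largest falls were genes of immune cells, of interferon responses and of antigen presentation. All 16 measured macrophage and myeloid markers were below 0, with a median of -1.40, and 7 fell (Ly86, Ccl12, C1qb, Aif1, Mrc1, Tyrobp and C1qc), against 1.94% of all genes. Of 5 neutrophil genes 2 fell, and of 31 interferon-stimulated genes 5 fell and 0 rose, with medians of -2.40 and -0.93. In MHC class II 2 of 10 fell (Ciita and H2-Eb1), in MHC class I 2 of 14 (Psmb10 and H2-M3), and among T, NK and B cell markers 3 of 11 (Coro1a, Ctsw and Cd3g). The medians of these 3 lists were -1.61, -1.21 and -0.54.

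S100a8, a subunit of the neutrophil protein calprotectin, was at 9.98, 9.98 and 7.63 in the controls and at 6.03, 6.51 and 5.39 at 14 MBq. Control replicate 3 was the closest to the treated arrays, and the gene fell by 3.22 (SE 0.59, limma, adjusted p = 0.0108). S100a9, the other subunit, fell by 2.67 (SE 0.54, adjusted p = 0.017). Il1b, which encodes the inflammatory cytokine interleukin-1 beta, was at 8.36, 7.77 and 7.03 in the controls and at 5.52, 5.33 and 5.77 at 14 MBq. All treated arrays were lower, and Il1b fell by 2.18 (SE 0.32, adjusted p = 0.00383), a call that held in every leave-one-out fit. Its probe was detected on 1 of the 3 arrays at 14 MBq, and those of S100a8 and Ly86 on 2 of 3, so the size of these falls rests partly on signals near background. Ly86, a partner of the receptor RP105 on myeloid and B cells, fell by 2.20 (SE 0.46, adjusted p = 0.0178). The chemokine genes Ccl4 and Ccl12 fell by 2.14 (SE 0.58, adjusted p = 0.0493) and fell by 1.98 (SE 0.42, adjusted p = 0.0186).

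Socs3, which encodes a feedback inhibitor of cytokine signalling, was at 8.89, 10.88 and 7.50 in the controls and at 7.44, 6.37 and 6.50 at 14 MBq. Control replicate 3 lay only just above the highest treated array, and the gene fell by 2.32 (SE 0.57, adjusted p = 0.0349). Ciita, the master activator of MHC class II genes, was at 9.45, 8.03 and 6.60 in the controls. It was not detected on any array at 14 MBq and, by the group means, at least 5.15-fold lower (limma, adjusted p = 0.0224). Adamts4, a matrix protease gene, was likewise not detected at 14 MBq and at least 4.20-fold lower by the group means (adjusted p = 0.0418). Single controls moved these sizes. The difference was -1.80 for Ciita without control replicate 1 and -1.32 for Adamts4 without control replicate 2. H2-Eb1, an MHC class II beta chain gene, was at 13.54, 12.30 and 11.15 in the controls and 9.93, 10.78 and 10.26 at 14 MBq, and fell by 2.01 (SE 0.50, adjusted p = 0.0356). The interferon-induced GTPase gene Gvin1 fell by 2.38 (SE 0.43, adjusted p = 0.0102). Timd2, an immune regulator and ferritin receptor gene in mice, fell by 2.09 (SE 0.48, adjusted p = 0.0269).

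**Figure D3:**
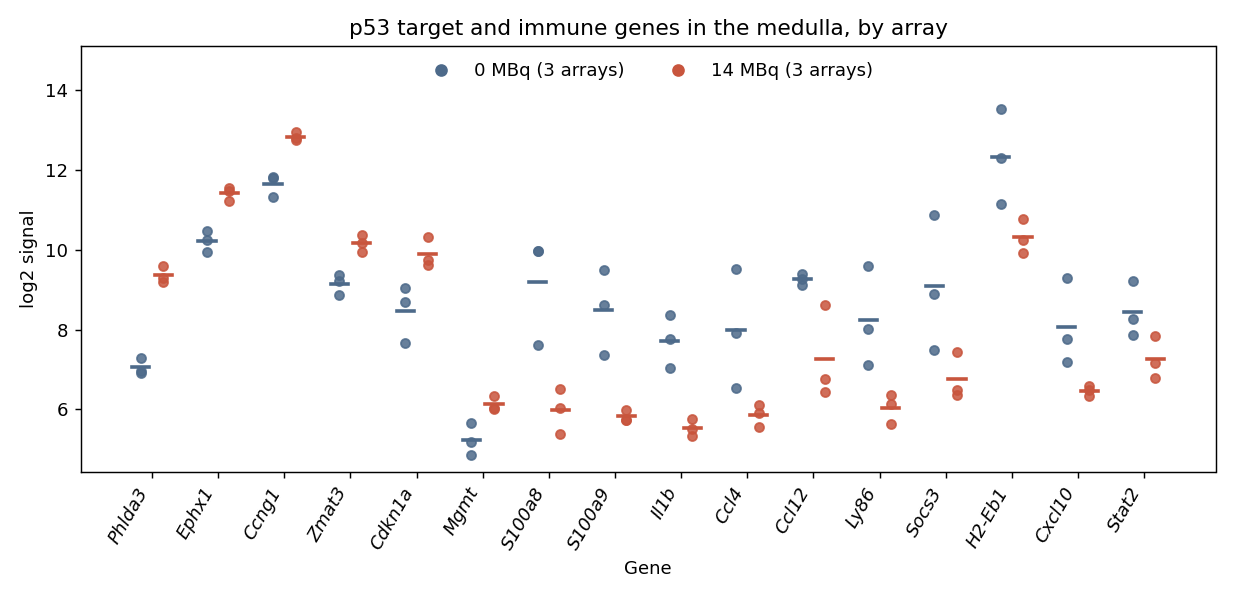
Log2 signal of p53 targets (Phlda3 to Mgmt) and of immune and interferon genes (S100a8 to Stat2) on each medulla array at 0 MBq and 14 MBq, with points for arrays and bars for the mean of 3. The p53 targets lie higher at 14 MBq. The immune genes lie lower, with the control arrays spread more widely than the treated ones in all shown but Ccl12, as in Ccl4 at 9.53, 7.92 and 6.53.

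The falls varied with the control arrays, and the summed myeloid signal was 10729 to 14064 at 14 MBq against 19324 to 56914 on the controls. For the interferon-stimulated genes the mean deviation was 1.78, 0.41 and 0.03 on control replicates 1, 2 and 3, and between -0.46 and 0.12 at 14 MBq. All 7 myeloid, all 5 interferon-stimulated and all 3 T, NK and B cell calls were lost without control replicate 1. So were both neutrophil, both MHC class II and both MHC class I calls. All of these were also lost without replicate 3 at 14 MBq. Without replicate 1 or 2 at 14 MBq or control replicate 2, 6 myeloid calls were lost each time, and 5, 3 and 3 interferon-stimulated calls. The T, NK and B cell and MHC calls were all lost each time, and 1, 0 and 1 neutrophil calls. Without control replicate 3 each of these lists lost 0 calls. Socs3, Adamts4, Timd2 and Ccl4 each lost the call in 5 of the 6 leave-one-out fits. Without control replicates 1 and 2 together the median was -0.60 for myeloid markers, -0.25 for interferon-stimulated genes, -0.03 for neutrophil genes and -0.01 for MHC class II genes, and none of their members was called.

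The 5 interferon-stimulated genes that fell were Parp14, Cxcl10, Irf9, Irf1 and Stat2. Cxcl10, a chemokine that draws T cells, was at 9.29, 7.77 and 7.19 in the controls and at 6.34, 6.58 and 6.49 at 14 MBq. Its groups were apart, and it fell by 1.61 (SE 0.38, limma, adjusted p = 0.0286). Stat2 and Irf9, transcription factor genes of the interferon response, fell by 1.19 (SE 0.31, adjusted p = 0.0422) and fell by 1.04 (SE 0.26, adjusted p = 0.0347). Irf1 fell by 1.46 (SE 0.37, adjusted p = 0.0375), and Parp14, which encodes an ADP-ribosyltransferase, fell by 1.73 (SE 0.39, adjusted p = 0.0249). The interferon-stimulated response element, a promoter motif of interferon-induced genes, was searched for as GAAA, any 2 bases and GAAA, on both strands in the 250 bases before each start, and 2.98% of the 32851 promoters held it. Of the 4 fallen members with a listed promoter, 2 held it, Cxcl10 and Stat2, as did 11 of the 21 members that were not called. Here too a gene was counted if any of its starts held the element, whereas the percentage counts every start. The Cxcl10 promoter at chr5:92348890-92349139 (minus strand, GRCm38.p6, RefSeq) is shown as the example, with the element in capitals.
Cxcl10: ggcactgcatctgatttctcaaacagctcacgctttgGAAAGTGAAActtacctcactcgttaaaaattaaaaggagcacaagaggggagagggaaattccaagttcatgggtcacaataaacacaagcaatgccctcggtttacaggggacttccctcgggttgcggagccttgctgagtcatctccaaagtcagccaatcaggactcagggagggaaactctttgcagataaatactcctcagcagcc

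Among the other lists few members passed, and their counts stand against 2.42% of all genes called higher and 1.94% called lower. Of 17 glucocorticoid-responsive genes 2 rose, Per1 and Angptl4, and the median was 0.49. In that list 16 members were above 0, beside 5112 of all 10869 genes. Of 14 heat shock genes 2 rose, Hsp90aa1 (1.65 ± 0.45, limma, adjusted p = 0.0493) and Hspb1 (0.98 ± 0.24, adjusted p = 0.0359), and of 31 respiratory chain genes 3 rose, Cox7b, Cox7a2 and Cox6b2. The call of Hsp90aa1 was lost in all 6 leave-one-out fits and that of Hspb1 in 5, and the 3 respiratory chain calls were all lost without replicate 3 at 14 MBq. Of 17 regulators of sodium and water transport 1 was lower, Avpr1a, a vasopressin receptor gene, which fell by 1.35 (SE 0.23, adjusted p = 0.00832), a call that held in every leave-one-out fit. In the kidney injury list 1 of 16 fell, Il1b, and Havcr1, which encodes the injury marker KIM-1, was at -1.16 ± 0.34 (adjusted p = 0.0648). Of 14 thick ascending limb markers 1 was lower, the tight junction gene Cldn19, which fell by 0.88 (SE 0.23, adjusted p = 0.0445), a call lost in all 6 leave-one-out fits. No marker was called of 12 for thin limb (median -0.01), 16 for principal cells, 11 for intercalated cells or 10 for distal convoluted tubule. The same held for 17 ribosomal protein and 13 hypoxia genes. Of 23 fibroblast, pericyte and matrix genes 19 were below 0 (median -0.62) and 1 was called, Vim. Of 20 endothelial markers 16 were below 0 (median -0.38) and 1 was called, Icam2. All 6 podocyte markers were below 0 (median -0.53), with 0 called. Beside these, 5757 of all 10869 genes were below 0. Of the 6 leave-one-out fits 5 lost the call of Vim and 4 that of Icam2.

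The differences at 1.3, 3.6, 45 and 140 MBq from 0 MBq, given in that order, use the same controls as 14 MBq. Cdkn1a was at -0.20, -0.45, 2.19 and 3.05 there and at 1.43 at 14 MBq, and Phlda3 was at 0.74, 1.06, 2.90 and 3.56 beside 2.32. Both lay at 14 MBq between the lower and the higher activities. Ciart was at 0.97, 2.05, 2.42 and 2.26 beside 2.45, Angptl4 at 2.38, 2.12, 2.19 and 1.56 beside 2.26, and Il1b at -1.23, -1.36, -1.80 and -1.35 beside -2.18. For these genes the other activities gave values of the same sign.

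**Figure D4:**
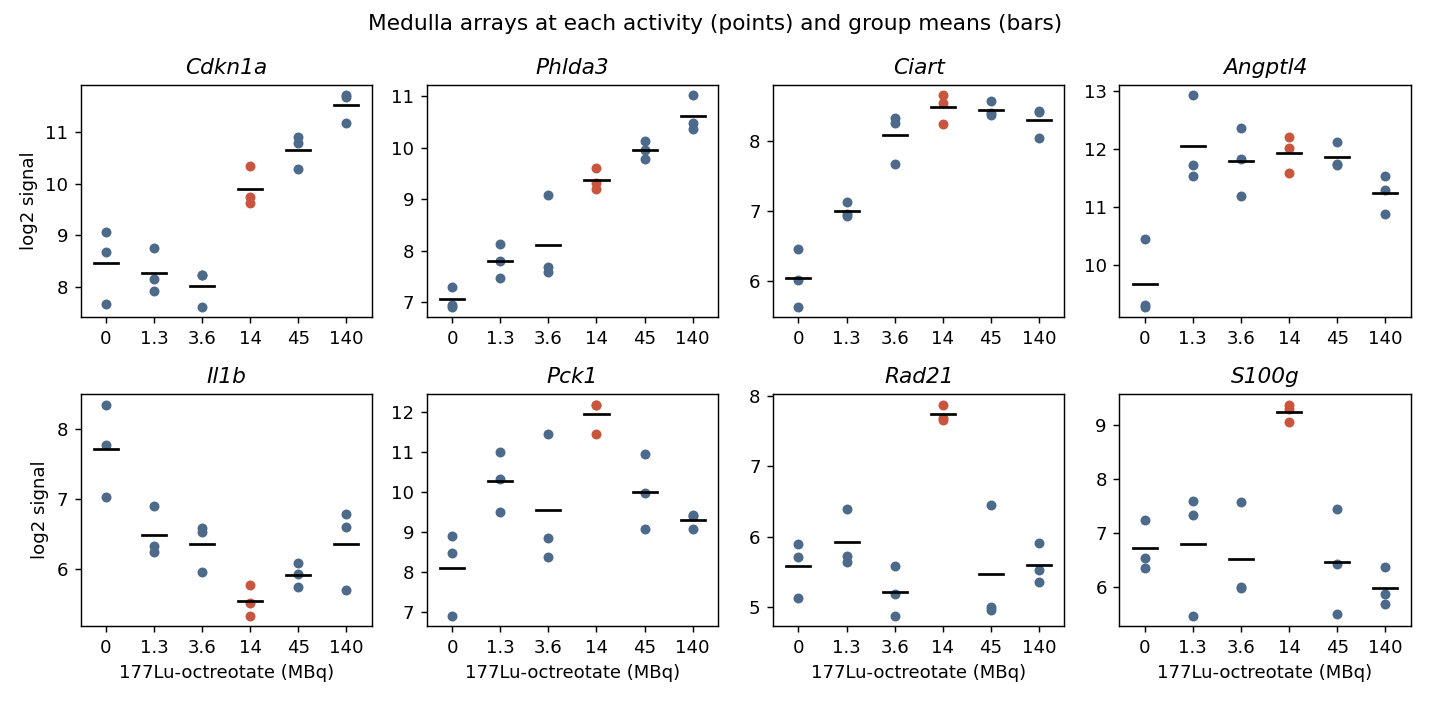
Log2 signal of 8 genes on the medulla arrays at each injected activity (horizontal axis, not to scale), with points for arrays, bars for the mean of 3, and 14 MBq in red. Cdkn1a and Phlda3 are higher at 45 and 140 MBq than at 14 MBq, Ciart and Angptl4 lie above and Il1b below the control mean at every treated activity, and Rad21 and S100g have their highest arrays at 14 MBq.

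Against the mean of the other 4 treated activities, a comparison that leaves the controls out, 524 genes were higher (4.82%) and 220 lower (2.02%) at 14 MBq. These counts depended on each array at 14 MBq: without replicates 1, 2 and 3 they were 128, 173 and 115 higher and 29, 39 and 22 lower. Of the 263 rises over the controls 126 were also called here, and of the 211 falls 31, and both comparisons use the 3 arrays at 14 MBq. No clock, p53, fatty acid oxidation, myeloid or interferon-stimulated gene was called. Cdkn1a and Phlda3 lay at 14 MBq between the lower and the higher activities. A comparison with the mean of those activities cannot show such a gradient, so the missing p53 calls say nothing about it. The genes with the smallest p were Tmem30b, Odr4, Msra, Slc30a4, Zbed3, Lims1, Map3k4, Rad21, Cacybp and Mafk, all higher at 14 MBq. All but Odr4, which then failed the detection filter, kept the call without each array at 14 MBq. Tmem30b, which encodes a subunit of lipid flippases, was at 7.89, 7.70 and 7.74 at 14 MBq and at 6.29, 5.83 and 6.47 in the controls. It was 2.18 ± 0.22 above the other activities (limma, adjusted p = 0.000468) and 1.58 ± 0.28 above the controls (adjusted p = 0.00966).

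Rad21, a cohesin subunit gene, was at 7.66, 7.88 and 7.69 at 14 MBq and at 5.13, 5.72 and 5.90 in the controls, with no overlap. It was 2.19 ± 0.27 above the other activities (limma, adjusted p = 0.000607) and 2.16 ± 0.34 above the controls (adjusted p = 0.00603). Msra, a methionine sulfoxide reductase gene, was not detected on any control and was detected on all 3 arrays at 14 MBq. By the group means it was at least 2.05-fold higher (limma, adjusted p = 0.00149). The sizes of these rises over the controls varied over the other planned settings, the leave-one-out fits included. They ran from 0.93 to 2.32 for Rad21, 0.74 to 1.71 for Tmem30b and 0.62 to 1.82 for Msra. S100g was 2.80 ± 0.43 above the other activities (adjusted p = 0.00323), Glul 2.11 ± 0.38 (adjusted p = 0.00514), Ndrg4, a cytoplasmic protein gene of the NDRG family, 2.11 ± 0.37 (adjusted p = 0.00487), and Pck1 2.16 ± 0.55 (adjusted p = 0.0278). Eapp, which encodes an E2F-associated phosphoprotein, was at 7.72, 7.54 and 7.68 at 14 MBq and at 5.52, 5.63 and 5.75 in the controls. It was 2.07 ± 0.34 above the other activities (limma, adjusted p = 0.00378) and 2.02 ± 0.44 above the controls (adjusted p = 0.0211). The call of Eapp against the controls was lost in 5 of the 6 leave-one-out fits. Its rise ran from 0.86 to 2.07 over the other planned settings. Without single arrays at 14 MBq the call of Pck1 against the other activities was lost each time (adjusted p 0.0699 to 0.13), and that of Glul without replicate 3 (adjusted p = 0.0518). Of 31 respiratory chain genes 8 were higher, of 14 heat shock genes 4 (Hsp90aa1, Hspb1, Hspd1 and Hspe1), of 13 urothelium markers 4 (Upk1a, Upk1b, Upk2 and Sprr1a) and of 19 NRF2 genes 3 (Gclc, Txnrd1 and Akr1b8), against 4.82% of all genes. Without replicate 3 at 14 MBq these counts were 1, 2, 2 and 0, against 115 genes in all. The urothelium markers, which mark the lining of the renal pelvis, had a mean deviation of 0.43 to 0.80 at 14 MBq, -0.05 to 0.56 at 140 MBq, -0.99 to 0.13 over the 3 remaining treated activities and -0.23 to 0.15 on the controls. The ranges at 14 and 140 MBq overlapped.

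The 524 genes moved together from array to array. Their mean deviation from the medulla average was 0.82, 0.75 and 0.84 on the 3 arrays at 14 MBq that chose them, which is a description and no test. On the cortex arrays, which were not used to choose them, it was -0.05, 0.73 and 0.94 at 14 MBq. It was also 0.90 on replicate 1 at 3.6 MBq in cortex and -0.93 and -0.80 on replicates 2 and 3 there. The 3 cortex arrays at 3.6 MBq thus lay on both sides of 0 in these genes. Same-numbered arrays of the tissues correlated at 0.132 to 0.257 across genes at 14 MBq, so the cortex arrays are not independent of the choice. In cortex 499 of the 524 lay above 0 at 14 MBq against the other activities, with a median of 0.58 against -0.03 for all genes, and limma called 0 genes there, with 1241 at an unadjusted p under 0.05. The sources used here do not give the batch of an array, and its part in these genes was not tested.

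**Figure D5:**
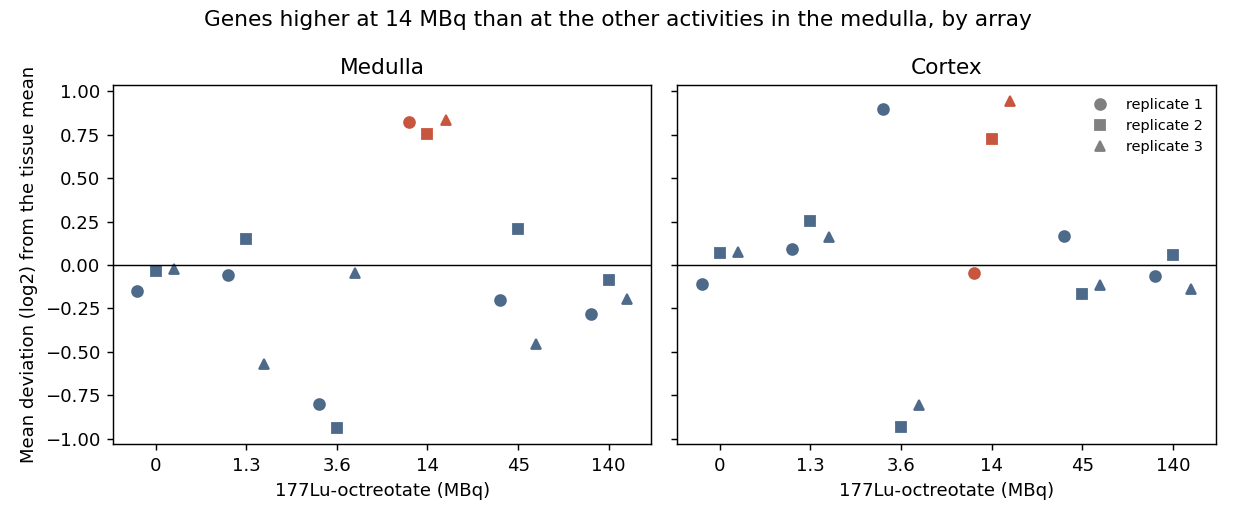
Mean log2 deviation, from the average of the tissue, of the 524 genes called higher at 14 MBq than at the other activities in medulla, on each array of both tissues (points shaped by replicate, 14 MBq in red, horizontal axis not to scale). The medulla arrays at 14 MBq sit at 0.75 to 0.84, by selection. In cortex replicates 2 and 3 at 14 MBq and replicate 1 at 3.6 MBq sit at 0.73 to 0.94 and the other cortex arrays at 0.25 or below.

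The same contrast in the cortex asked whether the medulla differed. The difference between the tissues was called for 0 of 11471 genes by limma (0%), 298 genes (2.6%) had an unadjusted p under 0.05, and the smallest adjusted p was 1.00. The genes with the smallest p, led by Lrrc10 (-1.25 ± 0.30), Auh (-0.76 ± 0.20) and Rasd1 (-1.14 ± 0.31), therefore did not pass. Of the 263 genes that rose in medulla 259 were above 0 in cortex, with a median of 0.77, and of the 211 that fell 206 were below 0, with a median of -0.86, whereas 49.2% of all genes were above 0. Same-numbered arrays of the tissues deviated together, with correlations across genes of 0.628 to 0.667 at 0 MBq and 0.132 to 0.257 at 14 MBq, so the tissues are not independent samples. Ciart was 2.28 ± 0.28 higher at 14 MBq in cortex (adjusted p = 2.90e-05), Ephx1 1.68 ± 0.20 (adjusted p = 2.32e-05), and Angptl4 2.70 ± 0.38 (adjusted p = 0.000136). Ndrg4, among the largest rises in medulla, was at 0.35 ± 0.47 in cortex (adjusted p = 0.734), and the difference between tissues did not pass for it either.

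Other probes of the called genes were compared as a further reading. Of 75 other probes of genes that rose 61 were above 0 and 21 were called higher, with a median of 0.42 against 0.91 for the brightest probes of those genes. Of 77 other probes of genes that fell 63 were below 0 and 22 were called lower, with medians of -0.40 and -0.84.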

How the data were processed

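Per the labels' protocols, column-purified total RNA was biotin-labelled for Illumina arrays after a Bioanalyzer check. The deposited signals are linear intensity values without normalisation between arrays, with a detection p-value for each, per the file headers. Another deposited table has linear intensity values that the authors had normalised between arrays, and it served as an alternative. Its normalisation method is not given in the sources used here.

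The function neqc of limma 3.58.1 in R 4.3.3 inferred negative controls from the detection p, corrected the background, quantile-normalised, added 16 and took log2 (data.table version 1.17.8; figures with matplotlib 3.10.9). Probes with a detection p under 0.05 on 3 or more medulla arrays were kept, with the brightest probe of each gene. GEO's platform annotation gave a single symbol for 23974 probes, several for 0 and none for 1723, and unnamed probes kept their identifiers. The fit (lmFit and eBayes) used the 18 medulla arrays (12 residual degrees of freedom), and the tissue difference all 36 (24). The Benjamini-Hochberg adjustment ran over all genes of a comparison. For a gene not detected on any array of a group, a bound was given. The dim group's level on each array was then the higher of the probe's own signal and the lowest detected signal. The bound is on the ratio of the group means and makes no allowance for the spread among arrays. The procedure was tested on simulated data.

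The rule for named genes took the 12 largest rises and falls among called genes without overlap, up to 6 members of each list by p, the 10 smallest p against other activities, the first of those between tissues, and Cdkn1a, Ephx1, Lrp2 and Sstr2. C1qc, Clock, Cry2, Dbp, Noct, Per3, Nr1d1, Nr1d2, Nfil3, Bhlhe40, Mdm2, Slc34a1, Adipoq, Fabp4, Retn, Rgs9 and Il20ra lie outside this and were named after their values were seen. The members and the 41 gene lists were chosen with earlier results of these data known. Same-numbered arrays of the medulla groups did not deviate together (correlations 0.0562, -0.0827 and 0.121), so replicate numbers were not taken as pairs there. Between tissues they did, and the random block changed no call.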

Additional observations from a re-analysis of the deposited data

How the results depend on the processing

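The comparison with 0 MBq called 474 genes (263 higher, 211 lower), and the deposited normalisation, no background correction, no detection filter, the stricter filter and every probe gave 641, 636, 339, 544 and 631. Requiring an adjusted p under 0.01 and a 1.5-fold change left 50 (38 higher, 12 lower), a fit of all 36 arrays 167 (88 and 79), and a fit of only the 6 arrays 54 lower genes of 316. Leaving out 1 array gave 59 to 869 genes (41 to 388 higher, 18 to 481 lower). Leaving out control replicates 1 and 2 together, chosen after seeing the data, gave 7 (4 and 3), with the lone control assumed to vary like the other groups. Against the other activities 744 genes were called, 156 under those stricter limits (144 and 12), and 137 to 1014 with 1 array left out (115 to 700 higher, 22 to 352 lower). With the replicate block the counts were 384 (209 and 175) and 594 (435 and 159). The numbers do not pair the medulla arrays. The difference between tissues stayed at 0 genes in each alternative run, the block of same-numbered arrays included. Lrp2, not called at -0.22, ran from -0.51 to 0.10 with 1 array left out and changed sign without control replicate 3 (adjusted p = 0.872), and Lcn2, an injury marker at -2.40 and not called, to 0.36 without control replicates 1 and 2. The cause of these shifts was not tested, and the leave-one-out fits also held fewer arrays. The number of arrays, and dim probes near background, limit what could be called.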
